A study of Gallus gallus with 24 samples.

Results

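The 7 eyes described here were those with a high signal for DCN, decorin, among 24 eyes of a study of form-deprivation myopia in chicks. Decorin is a small proteoglycan that coats collagen fibrils in connective tissue. The eyes were chosen by this signal alone. An eye was called high where its DCN signal was above 200 and low where it was below 60. By this rule 7 of the 24 eyes were high, 16 were low, and 1 eye, with a signal of 163.3, fell between the limits and was left out of the comparison. The groups were thus formed from a value measured on the same arrays and are not groups of the study. The tests below state which other genes went with the DCN signal, and the DCN values themselves are a description.

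Each of 12 white Leghorn chicks wore a translucent white plastic goggle over the left or right eye from 1 week of age, and the fellow eye served uncovered as the control. The goggle was worn for 3 d by 6 chicks and for 6 h by the other 6, and the 4 groups of 6 eyes were goggled and open eyes at 3 d and goggled and open eyes at 6 h. The eyes were opened at the equator, and retina and retinal pigment epithelium were dissected together, frozen and processed eye by eye. RNA of each eye was hybridised to its own Affymetrix chicken array, on which a gene is read by 1 or more probe sets and a signal is an intensity on a linear scale. No genotype or drug separates the groups: goggle and time are the only labelled differences, and the labelled tissue names neither choroid nor sclera.

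Behind the pigment epithelium lies the choroid, a layer of vessels with endothelium, pericytes, smooth muscle, pigment cells and loose collagen, and behind that the sclera, which in birds has an inner cartilage and an outer fibrous coat. The chick retina itself has no blood vessels, and a pleated, pigmented vascular organ, the pecten, projects from the optic nerve head into the vitreous. The choroid is also a known source of retinoic acid in the chick, made there by the enzyme that ALDH1A2 encodes. Fibrillar collagen genes, smooth muscle genes and endothelial genes are therefore useful signs of how much tissue other than neural retina and pigment epithelium a sample holds. In whole-tissue RNA, fewer cells of a type and less RNA per cell cannot be told apart.

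DCN signal was 1471 in the 3 d goggled eye 3, 872.3 in the 6 h open eye 5, 637.3 in the 3 d open eye 2, 539.1 in the 6 h goggled eye 5, 379.9 in the 6 h open eye 1, 247.9 in the 3 d open eye 1 and 227.0 in the 6 h goggled eye 3. The 16 low eyes ran from 0.8 to 55.3 with a median of 28.9. Just inside the upper limit lay the eye at 227.0 and just outside it the eye at 163.3, the 6 h goggled eye 6, while the highest low eyes had 55.3 and 49.8. A signal of 22.8 is the 95th percentile of probe sets that match no chicken gene and serves here as the background, and 9 low eyes had DCN above it and 7 below it.

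Of the high eyes, 3 were among 11 goggled eyes and 4 among 12 open eyes (two-sided Fisher's exact test, odds ratio 0.75, p = 1, adjusted p = 1). By time, 3 were among 12 eyes at 3 d and 4 among 11 at 6 h (two-sided Fisher's exact test, odds ratio 0.583, p = 0.667, adjusted p = 1). Both tests counted the eyes of a chick as independent, although time was set per chick and goggled eyes have fellow eyes. Counts this small also leave room for differences that the tests could not show. Within chicks, the same replicate number was taken as the same animal: 1 chick had both eyes high, 5 chicks had 1 high and 1 low eye, 5 had both eyes low, and 1 had a low eye and the eye between the limits. The median array signal was 38.1 in the high eyes (range 33.8 to 44.1) and 34.7 in the low eyes (30.1 to 43.9). For actin control probe sets, the signal near the 3' end over that near the 5' end, which reflects RNA integrity, averaged 3.65 ± 0.67 in the high eyes (SD, n = 7) and 3.62 ± 0.58 in the low eyes (SD, n = 16). Chicks with a signal for the female W chromosome accounted for 5 of 7 high eyes and 10 of 16 low eyes.

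The 4 other markers given for these eyes were COL1A1 and COL3A1, which encode the chains of fibrillar type I and III collagen, and MYH11 and TAGLN, smooth muscle myosin and transgelin. Because they came with the choice of the eyes, their values are a description, and counts of calls over all genes or lists that include them add nothing to it. COL1A1 ranged from 29.1 to 538.6 in the high eyes with a median of 101.5, and from 10.2 to 42.2 in the low eyes with a median of 24.15. COL3A1 ranged from 86.4 to 1566 in the high eyes (median 421.7), against 34.6 to 91.7 in the low eyes (median 51.0). In both collagens 6 of 7 high eyes lay above every low eye, and the exception was the 6 h open eye 1. MYH11 ranged from 24.2 to 290.7 in the high eyes (median 62.4) and from 4.9 to 32.0 in the low eyes (median 21.1), with the 6 h goggled eye 5 inside the low range. TAGLN ranged from 24 to 197.9 in the high eyes (median 101.8), against 1.4 to 22.5 in the low eyes (median 11.2), and did not overlap.

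These markers came with the choice of the eyes and so do not test the name of eyes rich in stromal tissue. Both collagens lay above the low range in 6 of the 7 eyes, and MYH11 in all but the 6 h goggled eye 5. In the 6 h open eye 1 neither collagen did, so the eyes are called high DCN eyes here. In the 6 h open eye 1, COL1A1 was 29.1 and COL3A1 86.4, both within the range of the low eyes, although DCN was 379.9. In the 6 h goggled eye 5, DCN was 539.1, COL1A1 54.4 and MYH11 24.2. The eye left out between the limits, with 163.3 for DCN, had a COL3A1 signal of 318.0 and a COL1A1 signal of 70.9.

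**Figure D1:**
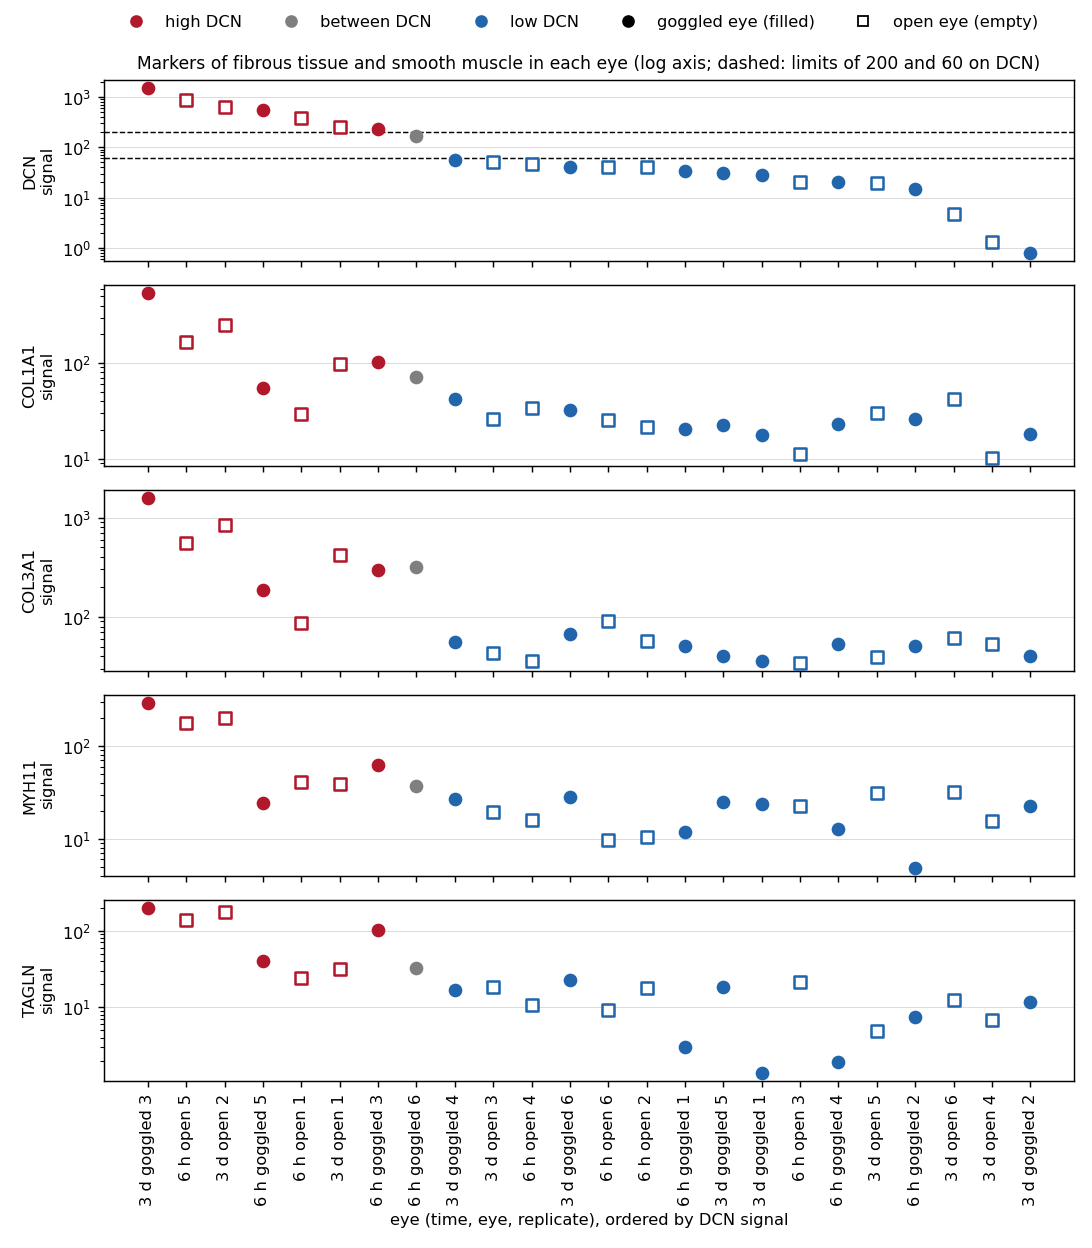
Signal of DCN, COL1A1, COL3A1, MYH11 and TAGLN (log axes) in each of the 24 eyes, ordered by DCN, with the 7 high eyes in red, the eye between the limits in grey and the 16 low eyes in blue. The 3 d goggled eye 3, 6 h open eye 5 and 3 d open eye 2 lead in all 5 genes, while the 6 h open eye 1 (COL1A1 29.1) lies among the low eyes for both collagens.

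Across all genes, the high and low eyes were compared on log2(signal + 16) with goggle and time as covariates. Of 26906 probe sets tested, 146 (0.543%) passed an adjusted p of 0.05 with limma, 145 of them higher (0.539%) and 1 lower (0.00372%) in the high eyes. The 145 include 6 probe sets of the 4 markers. With 1 probe set per gene, the brightest, 11135 genes were tested, of which 96 (0.862%) were higher and 0 lower, whereas 2127 probe sets had an unadjusted p under 0.05, 729 of them lower. Of the 96 genes, 42 had a mean in the low eyes below the background. The median difference over all 11135 genes was 0.003, with 5702 higher and 5433 lower values in the high eyes. List medians, counts of called genes and counts of higher or lower values below are read against these. The 1 lower probe set has no gene name, with a signal of 14.8 ± 4.6 in the high eyes (SD, n = 7) and 23.2 ± 4.3 in the low eyes (SD, n = 16), close to the background. With the chick as a fixed replicate block, 9 probe sets (0.0334%) were called, 8 of them among the 146. They were probe sets of ARSH, COL3A1, GPC4, HPGDS, LY86, MMP2, SOX7 and VWF and 1 without a gene name, all higher. Leaving out the 3 d goggled eye 3 gave 72 calls, leaving out the 3 d open eye 2 gave 95, and leaving out the 3 eyes highest in DCN gave 16. In tests of the difference of the contrast between 3 d and 6 h, and between goggled and open eyes, 0 probe sets were called by limma (0%), with 1020 and 1228 at an unadjusted p under 0.05.

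All 7 high eyes lay above all 16 low eyes in 21 probe sets (0.078%), and in 0 (0%) did they lie below. By the brightest probe set this held for 17 genes (0.153%). They were the endothelial genes VWF, CDH5 and SOX7, the matrix genes FN1 and MMP2, the smooth muscle gene TAGLN, the retinoid-responsive gene RARRES1, the leukocyte genes LY86 and LAPTM5, and B2M, CD99, ABCB1, ACTC1, IFI6, MX1, PARP14 and TFPI2. A dimmer probe set of CALD1 and of COL1A2 and a second one of FN1 also separated the groups, as did 1 without a gene name. Of the 17 genes, CDH5, SOX7, TAGLN and LY86 had a low eye mean under the filter on mean signal of 14.4. ABCB1 was under it in every low eye, and the MX1 median in the low eyes was 10.1. These genes were tested only because other eyes were higher, and TAGLN was also a given marker, so their separation is a description.

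MGP encodes matrix Gla protein, an inhibitor of calcification made by cartilage and vascular smooth muscle, and had the highest difference of any called gene. Its signal was 31.2 to 3222 in the high eyes (median 401.6), against 5.5 to 136.3 in the low eyes (median 21.65). The difference was 3.25 ± 0.48 on the log2(signal + 16) scale (SE, adjusted p = 0.000887). The 3222 was in the 3 d goggled eye 3 and the 1046 below it in the 3 d open eye 2, while the 6 h open eye 1 (31.2) and 6 h goggled eye 5 (130.8) lay inside the low range.

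In the list counts that follow, a gene had to pass the filter on mean signal to be tested, and the medians cover those genes alone. A gene that passed only through the high eyes had to differ, and such genes are named beside the endothelial and basement membrane lists. Other list genes with a low eye mean under the filter were TAGLN and CSRP1 of smooth muscle and POSTN of stromal matrix. LY86, LYZ and PTPRC among the macrophage and leukocyte genes, EPB42 of red cells and EDNRB2 of melanocytes were too. So were MYL1, MYL2 and TNNC2 of striated muscle, and some genes outside the lists, such as CA4 and ID1. Their tests, and the list medians and means that include them, carry the same limit. Among 13 genes of fibrillar and stromal collagens, 4 rose and 0 fell, and the median difference was 0.45. Without both marker collagens 2 of 11 rose, with a median of 0.43. They were COL1A2, the second chain of type I collagen, and COL6A1, a chain of the beaded type VI collagen. COL1A2 had 27.9 to 482.7 in the high eyes (median 92.4) and 7.5 to 28.8 in the low eyes (median 20.2), a difference of 1.86 ± 0.30 (SE, adjusted p = 0.00174). COL6A1 had 70.6 to 130.4 in the high eyes (median 88.3) and 37.1 to 77.9 in the low eyes (median 63.5), a smaller difference of 0.55 ± 0.11 (SE, adjusted p = 0.0130). COL14A1, which binds to fibril surfaces, did not pass (0.75, adjusted p = 0.149). It had 154.1, 140.6 and 114.6 in the 3 eyes that led in DCN and 31.4 to 54.9 in the other high eyes, against 18.8 to 56.9 in the low eyes. Probe sets of COL6A2 disagreed: the brightest differed by -0.23 (adjusted p = 0.732) and a dimmer one by 0.64 (adjusted p = 0.0282). Some dimmer probe sets of COL1A2 (0.11, 0.01 and 0.26), COL3A1 (0.34) and COL6A1 (0.34) did not pass either, while others of COL1A2 and COL3A1 did.

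No other member of decorin's family was called. The array held 10 small leucine-rich proteoglycans, DCN among them. Of the others 3 passed the filter on mean signal, with 0 called and a median of 0.15, and 6 did not. FMOD, fibromodulin, had 27.6 to 45.1 in the high eyes, against 15.8 to 47.2 in the low eyes (0.23, adjusted p = 0.654). OPTC, opticin, which the ciliary epithelium secretes into the vitreous, had 170.4 to 313.5 in the high eyes, against 148.9 to 309.6 in the low eyes (0.15, adjusted p = 0.814). LUM, lumican, a main proteoglycan of cornea and sclera, reached 42.0 in the 3 d open eye 1, against at most 17.2 in a low eye, and its median in the high eyes was 17.7, under the background. OGN reached 35.5 in the high eyes and 13.6 in the low eyes, and BGN, biglycan, 18.2 in the high eyes and 16.0 in the low eyes.

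Of 17 genes of elastic and other stromal matrix, FN1 alone rose, and the median difference was 0.30. FN1 encodes fibronectin, the matrix protein that cells grip through integrins. It had 352.9 to 1181 in the high eyes (median 680.7) and 166.2 to 334.1 in the low eyes (median 199.8), with no overlap, a difference of 1.46 ± 0.19 (SE, adjusted p = 0.000159). Of its dimmer probe sets, 1 passed (1.72) and others did not (0.52 and 0.51). POSTN, periostin, did not pass (0.99, adjusted p = 0.0600) and was uneven, with 148.3 in the 3 d goggled eye 3, 64.9 in the 3 d open eye 1 and 9.2 to 22.1 in the other high eyes, against 1.0 to 15.9 in the low eyes. SPARC, a collagen-binding matrix protein, passed with a dimmer probe set (1.10, adjusted p = 0.00960) and not with its brightest (0.66, adjusted p = 0.0693).

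Among 10 genes of fibroblast receptors and regulators, MMP2 alone rose and the list median was 0.22. MMP2, a gelatinase that cuts type IV collagen and other matrix, had the smallest adjusted p of all genes (3.99e-06). Its signal was 76.5 to 450.3 in the high eyes (median 188.5), against 14.4 to 41.9 in the low eyes (median 31.75), a difference of 2.19 ± 0.20 (SE). Unlike the collagens, it was as high in the 6 h open eye 1 (224.8) as in the 3 d open eye 2 (211.0). Transcription factors of connective tissue were mostly too dim to test: TWIST1, TWIST2, FOXC1, FOXC2, TCF21 and SNAI2 reached at most 35.7 in a high eye and 37.2 in a low eye.

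CLEC3B, tetranectin, a plasminogen-binding protein of mesenchyme, had 6.4 to 531.2 in the high eyes (median 169.0) and 2.7 to 40.1 in the low eyes (median 16.3), a difference of 2.21 ± 0.43 (SE, adjusted p = 0.0112). The call was lost without the 3 d open eye 2 (adjusted p = 0.0531) or the 3 d goggled eye 3 (0.0878). The lowest value of the high eyes, 6.4, was again in the 6 h open eye 1. PTGDS, the lipocalin-type synthase of prostaglandin D2, had 43.8 to 410.8 in the high eyes (median 97.5), against 3.2 to 55.1 in the low eyes (median 15.5), a difference of 2.02 ± 0.33 (SE, adjusted p = 0.00223). For PTGDS the 3 d goggled eye 3 (410.8) and the 3 d open eye 1 (382.8) stood above the rest.

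Of 10 smooth muscle genes other than the markers MYH11 and TAGLN, 0 were called by limma at their brightest probe set, and their median was 0.27. TPM1, tropomyosin, was 421.5 to 1452 in the high eyes and 289.8 to 625.9 in the low eyes (0.66, adjusted p = 0.0765), and dimmer probe sets of TPM1 and of CALD1, caldesmon, passed. ACTA2, the smooth muscle actin that defines the cell type, was below the filter, at 17.1 or less in the high eyes and 13.3 or less in the low eyes, and DES, desmin, was at 14.0 or less in the high eyes and 22.1 or less in the low eyes. Beyond both markers, which came with the choice of the eyes, only dimmer probe sets of CALD1 and TPM1 were called among these genes. Whether the high eyes held more smooth muscle was not tested.

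Of 13 endothelial genes tested, 5 rose and 0 fell, with a median difference of 0.83. Of these 13, CDH5, SOX7, SOX18, CLDN5 and TEK had a mean in the low eyes under the filter and were tested only through the other eyes. Of the remaining 8 genes 2 rose, VWF and FLT4, and 7 dim endothelial genes were not tested, so the count and the median depend on the filter. VWF, von Willebrand factor, had 57.6 to 337.9 in the high eyes (median 177.5), against 7.0 to 35.2 in the low eyes (median 18.95), a difference of 2.36 ± 0.24 (SE, adjusted p = 8.42e-06). CDH5, the cadherin of endothelial junctions, had 30.9 to 195.2 in the high eyes (median 129.0), against 1.8 to 15.1 in the low eyes (median 7.75), a difference of 2.32 ± 0.23 (SE, adjusted p = 8.42e-06). The groups did not overlap in either gene, and all low eyes were under the background of 22.8 for CDH5. SOX7, SOX18 and FLT4, transcription factors and a growth factor receptor of endothelium, rose by 1.13, 1.37 and 0.83 with adjusted p of 6.85e-05, 0.00315 and 0.00366. The tight junction gene CLDN5 did not pass (0.87, adjusted p = 0.119), nor did the angiopoietin receptor TEK (0.83, adjusted p = 0.104). Of the 13 genes, 10 had higher and 3 lower values in the high eyes, against 5702 higher of 11135 over all genes. The 3 lower were KDR (-0.04), FLT1 (-0.20) and ESAM (-0.01), none of them called, so the list did not rise as a whole. Among the 7 endothelial genes below the filter, LYVE1, a lymphatic marker, reached 75.1 in the 3 d goggled eye 3, against 21.9 at most in a low eye.

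Among 10 basement membrane genes, 5 rose, with a list median of 0.44. All 10 had higher values in the high eyes, against 5702 of 11135 over all genes. COL4A1 and LAMB1 had low eye means under the filter, and of the other 8 genes 3 rose. COL4A2 and COL4A1 encode paired chains of the type IV collagen network. COL4A2 had 25.5 to 137.7 in the high eyes (median 107.8) and 2.4 to 30.2 in the low eyes (median 17.6), a difference of 1.67 ± 0.20 (SE, adjusted p = 6.86e-05). COL4A1 had 13.1 to 105.4 in the high eyes (median 50.9) and 1.0 to 19.5 in the low eyes (median 10.3), a difference of 1.31 ± 0.20 (SE, adjusted p = 0.00132). The laminin chains LAMB1, LAMA2 and LAMC1 rose by 1.10, 0.65 and 0.45. Dimmer probe sets of COL4A1 (0.11), LAMA2 (0.11 and 0.31) and COL4A2 (0.15 and 0.55) did not pass, while another of COL4A2 did (1.34). Of 6 pericyte genes, RGS5, a regulator of G-protein signalling, and PDGFRB, the receptor through which endothelium recruits pericytes, rose by 0.79 and 0.72 (adjusted p = 0.00339 and 0.00221), and the median was 0.38. RGS5 was 66.1 in the 3 d open eye 1 and 122.5 to 160.8 in the other 6 high eyes, against 35.1 to 89.3 in the low eyes. Its dimmer probe sets did not pass (0.52 and 0.18).

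**Figure D2:**
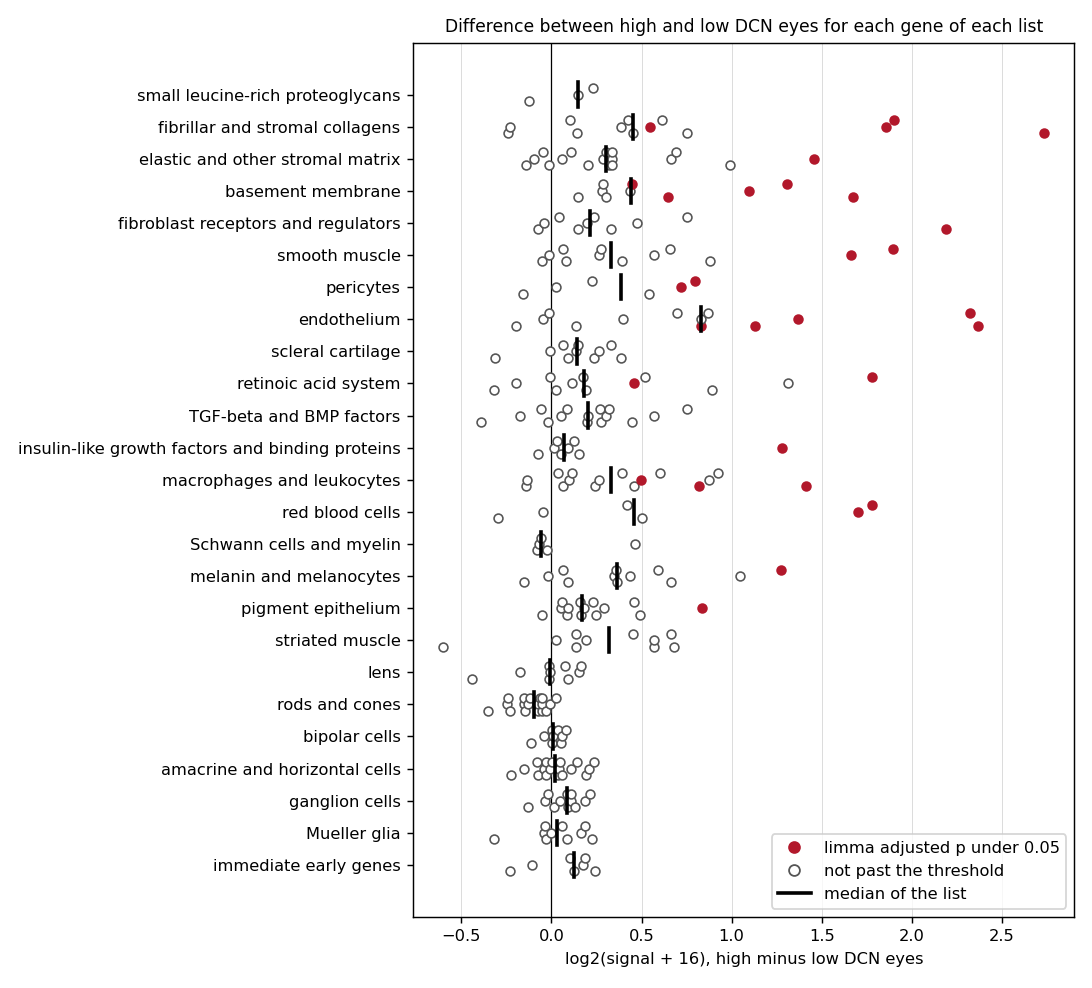
Difference between high and low DCN eyes for each tested gene of the 25 lists, on the log2(signal + 16) scale, with genes past the threshold filled in red and the list median as a black bar. The endothelial list has a median of 0.83, with 5 of its 13 genes tested only through eyes other than the low ones, and COL3A1 the highest single value, while the lists of neural retinal cells have medians of -0.10 to 0.09.

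The high eyes did not share 1 profile. The mean level of a list in an eye, as a difference from the mean of the low eyes on the log2 scale, was 1.46 for stromal collagens in the 3 d goggled eye 3, 1.01 in the 6 h open eye 5 and 0.98 in the 3 d open eye 2. It was 0.48 in the 6 h goggled eye 5, 0.20 in the 6 h open eye 1, 0.32 in the 3 d open eye 1 and 0.59 in the 6 h goggled eye 3, against -0.20 to 0.22 in the low eyes. For endothelium the same 7 eyes had 1.25, 0.90, 0.93, 1.16, 1.04, 0.32 and 0.23, against -0.14 to 0.22 in the low eyes. The 6 h goggled eye 5 and 6 h open eye 1 thus had endothelial means in the range of the 3 eyes that led in DCN, with lower collagen means, which in the 6 h open eye 1 lay inside the low range. In the 6 h goggled eye 3 the endothelial mean was at the top of the low range and the collagen mean above it, and in the 3 d open eye 1 both means lay just above the low range. The collagen means include the given markers COL1A1 and COL3A1. The endothelial means include CDH5, SOX7, SOX18, CLDN5 and TEK, which passed the filter only through eyes other than the low ones. Means without these genes were not computed. These patterns were seen after the values were known and are given without a test.

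Carbonic anhydrase 4, CA4, an enzyme anchored to the surface of capillary endothelium, was the leading gene of those 2 eyes, with 1295 in the 6 h goggled eye 5 and 1088 in the 6 h open eye 1. The other high eyes had 10.6 to 135.7 and the low eyes 1.4 to 66.4, and the group difference was 2.61 ± 0.55 (SE, adjusted p = 0.0231). The call was lost without the 6 h open eye 1 (adjusted p = 0.0557), the 6 h goggled eye 5 (0.0754), the 3 d open eye 2 (0.0738) or the 3 d goggled eye 3 (0.0944). ID1, an inhibitor of basic helix-loop-helix factors that BMP signalling switches on, had 381.3 and 240.9 in these eyes, 22.2 to 133.2 in the other high eyes and 0.7 to 32.8 in the low eyes (2.10 ± 0.33, SE, adjusted p = 0.00151). EDNRB, an endothelin receptor, had 485.2 and 434.9 in them, 24.7 to 52.6 in the other high eyes and 7.5 to 70.6 in the low eyes, and did not pass (1.05, adjusted p = 0.419). ALDH1A3, which like ALDH1A2 makes retinoic acid, had 560.1 and 817.2, against 78.6 to 170.9 in the other high eyes and 35.9 to 185.5 in the low eyes (0.89, adjusted p = 0.481). COL18A1, a vascular basement membrane collagen, had 511.0 and 393.7, against 115.3 to 225.5 in the other high eyes and 132.4 to 203.2 in the low eyes (0.44, adjusted p = 0.360). In all 5 genes these eyes, which came from different chicks, stood above the other 22 eyes. The 5 genes were grouped after their values were seen, so this separation is a description. How many of all probe sets had the same 2 eyes on top was not counted. CA4 and ID1 also had low eye means (12.28 and 12.47) under the filter on mean signal, and were tested only through other eyes.

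ALDH1A2, the retinoic acid enzyme known from chick choroid, showed the opposite split. It had 571.3 in the 3 d goggled eye 3, 405.5 in the 6 h open eye 5 and 246.6 in the 3 d open eye 2, but 51.8, 56.6, 78.8 and 78.6 in the other high eyes, against 32.6 to 78.7 in the low eyes (1.31 ± 0.32, SE, adjusted p = 0.0598). The 3 eyes that led in DCN thus stood apart in ALDH1A2, and the other 4 lay at or near the low range. RARRES1, first known as a gene induced by retinoic acid, had 76.5 to 474.2 in the high eyes (median 170.0), against 19.5 to 62.4 in the low eyes (median 39.65), a difference of 1.78 ± 0.22 (SE, adjusted p = 9.75e-05). CYP26B1, which degrades retinoic acid, rose by 0.46 (adjusted p = 0.0489), and these were the 2 of 12 genes of the retinoic acid system that passed, with a list median of 0.18.

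**Figure D3:**
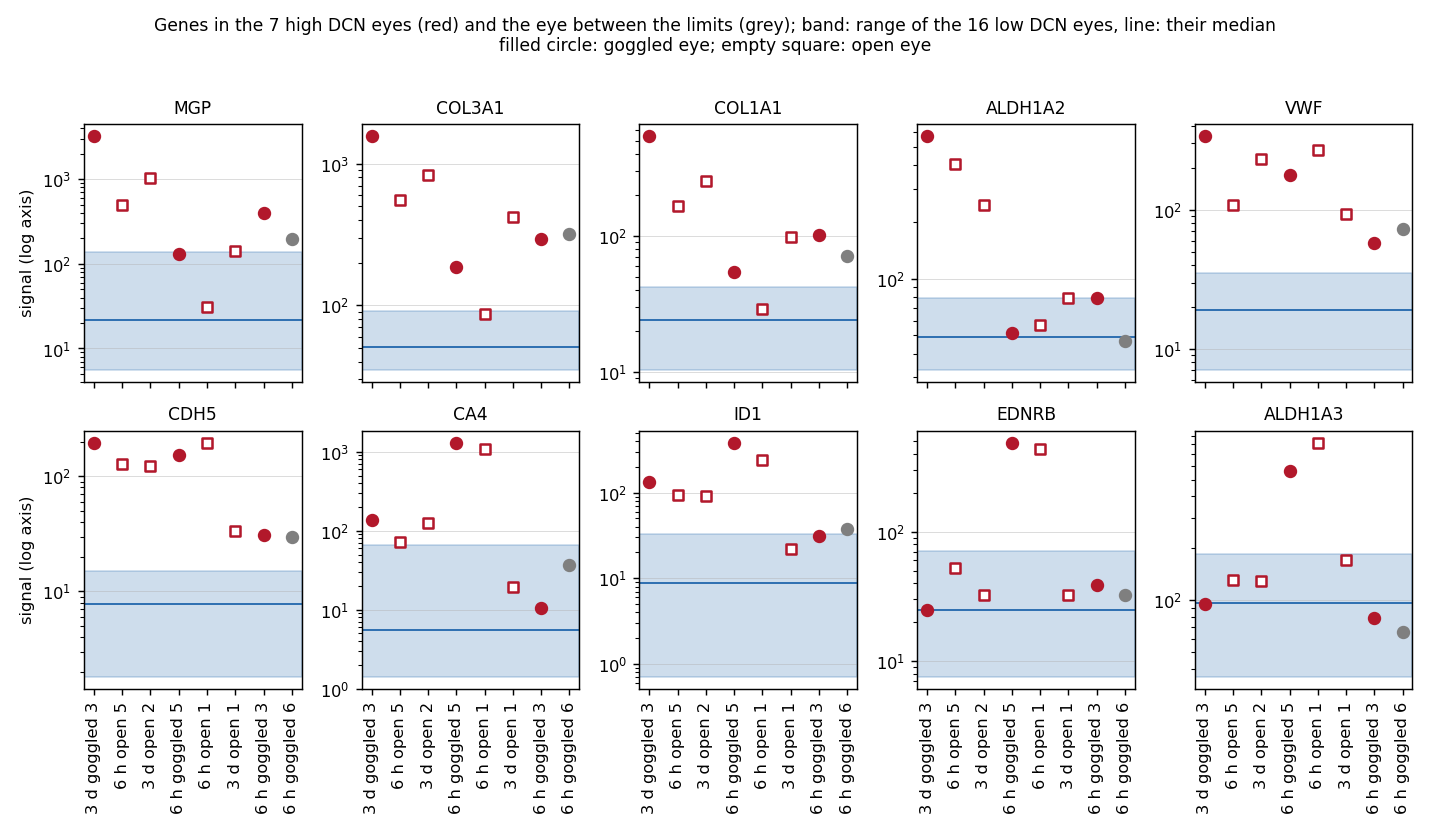
Signal (log axes) of 10 genes in the 7 high eyes in red and the eye between the limits in grey, with the range of the 16 low eyes as a blue band and their median as a line. MGP, COL3A1, COL1A1 and ALDH1A2 are highest in the 3 leftmost eyes, CA4, ID1, EDNRB and ALDH1A3 in the 6 h goggled eye 5 and 6 h open eye 1, and VWF and CDH5 lie above the band in all 7.

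Each eye's genes were also ranked by their difference from the mean of the low eyes, as a description chosen after the values were seen. The ranking used the same values as above and adds nothing separate to them. MGP and COL3A1 were the top 2 genes of the 3 d goggled eye 3 and of the 6 h open eye 5, and MGP and CLEC3B those of the 3 d open eye 2. After CA4, the leading genes of the 6 h goggled eye 5 and 6 h open eye 1 included GPNMB, a melanosome and macrophage glycoprotein (301.4 and 285.5, against at most 20.3 in the low eyes). FGL2, a fibrinogen-like protein, was also among them (357.7 and 459.4, against at most 42.0), as was VCAM1, a leukocyte adhesion molecule of endothelium (181.1 and 283.7, against at most 27.3). Low eye medians of GPNMB, FGL2 and VCAM1 were 9.7, 13.5 and 10.75, under the filter on mean signal.

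The 3 d open eye 1 was led by other genes. SPINK5, a protease inhibitor gene, had 6316 there, at most 34.6 in any other high eye and at most 23.8 in the low eyes. LYZ, lysozyme, had 1085, against at most 19.1 in the other high eyes and 11.2 in the low eyes, and REG1A had 716.1, against at most 9.4 in the other high eyes and 16.3 in the low eyes. Low eye medians of SPINK5, LYZ and REG1A were 13, 1.9 and 1.8, also under the filter. OVSTL and EXFABP, a protease inhibitor and a lipocalin, had 497.1 and 655.6 there. The eye between the limits shared SPINK5 (790.7) and LYZ (75.6) with it. LYZ belongs to the list of macrophage and leukocyte genes. Of the 16 tested genes of that list, 2 were above all low eyes in this eye, LYZ and LY86 (41.9, against at most 22 in the low eyes). The list mean, LYZ included, was 0.46, against at most 0.14 in a low eye. LYZ alone differed by 5.85 in this eye, so most of that mean came from 1 gene and the list is not read as raised.

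The striated muscle genes of the list stood out in 3 eyes and not in the groups. None of 10 tested passed, with a median of 0.32. ACTC1, cardiac muscle actin, is not in the list and was called (0.60, adjusted p = 0.00174, limma). It had 68.6 to 93.6 in the high eyes, 32 to 67.8 in the low eyes and 136.8 in the eye between the limits. The list mean was 0.99 in the 3 d goggled eye 3, 1.03 in the 6 h goggled eye 5 and between -0.05 and 0.01 in the other high eyes, against -0.20 to 0.17 in the low eyes, and it was 2.44 in the eye between the limits. TNNT3, fast skeletal troponin T, had 212.9 and 117.1 in the first 2 of these eyes, 575.5 in the eye between the limits and at most 41.9 in the low eyes. ACTA1, skeletal actin, had 170.0, 152.0 and 551.5 in the same order, against at most 46.8 in the low eyes. The 3 eyes do not follow the order of the DCN signal, and the part of muscle in the other results was not tested.

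**Figure D4:**
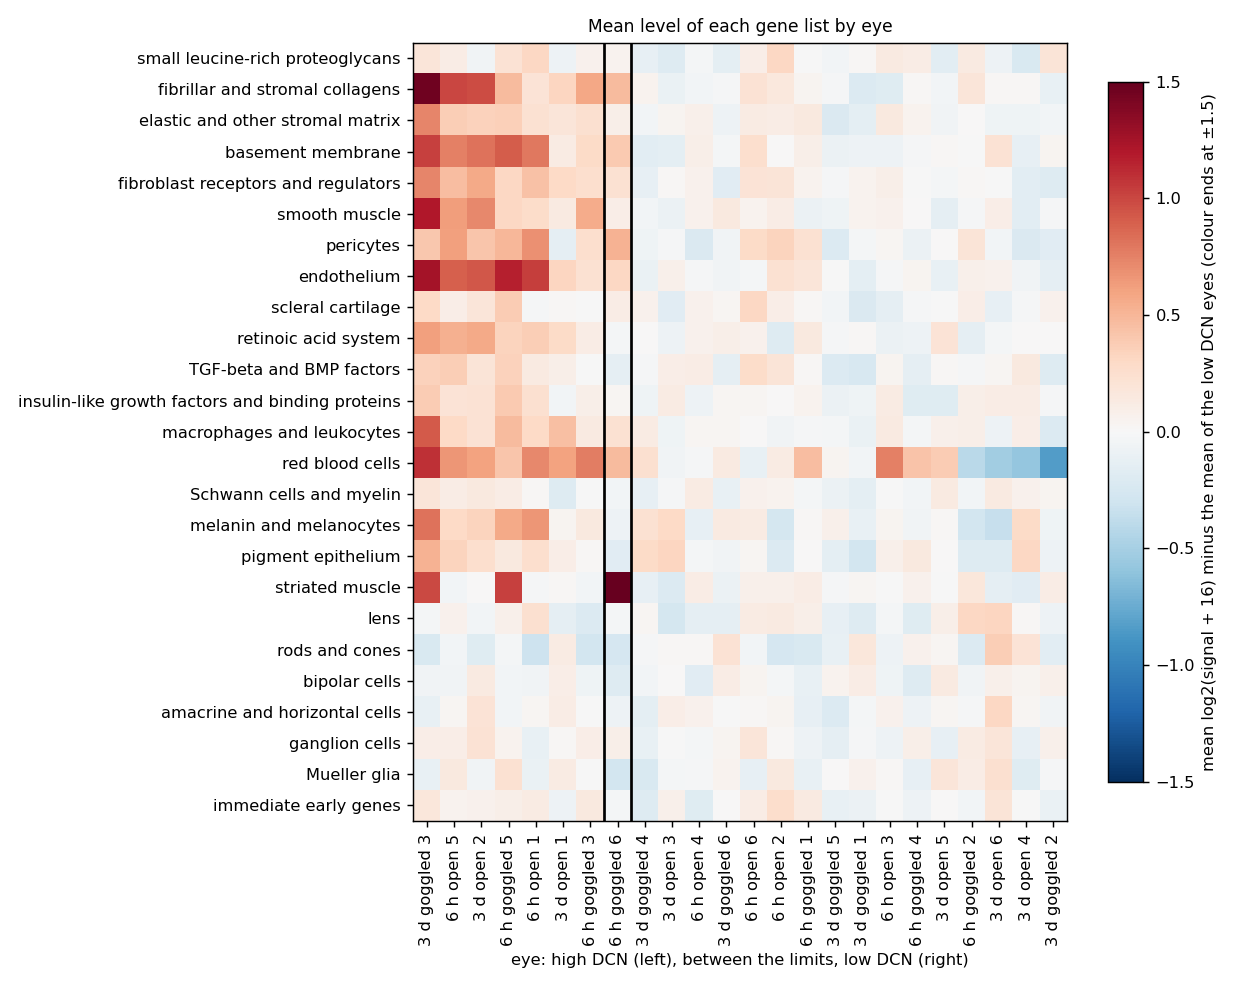
Mean log2(signal + 16) of each list in each eye minus the mean of the low eyes, with the 7 high eyes left, the eye between the limits in the middle and the 16 low eyes right (colour ends at ±1.5). Collagens and smooth muscle are highest in the 3 leftmost eyes, endothelium and basement membrane in the 5 leftmost, and striated muscle in 3 eyes, up to 2.44 in the eye between the limits. The collagen and smooth muscle means include the given markers COL1A1, COL3A1, MYH11 and TAGLN, and means without them were not computed. Endothelial and basement membrane means include genes that passed the filter only through eyes other than the low ones, so all these means are a description.

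Some blood cell genes were also higher. HBA1 and HBAD, the adult alpha globins, were the 2 of 6 tested red cell genes that rose, and the list median was 0.46. HBA1 had 2127 to 6509 in the high eyes (median 3639) and 336.4 to 3810 in the low eyes (median 990.0), a difference of 1.78 ± 0.36 (SE, adjusted p = 0.0143), and was not called without the 3 d goggled eye 3 (adjusted p = 0.104). HBAD had 849.5 to 2845 in the high eyes (median 1126) and 138.3 to 1020 in the low eyes (median 344.8), a difference of 1.70 ± 0.30 (SE, adjusted p = 0.00363). The groups overlapped in both. Related globins are alike in sequence, so their probe sets may share signal. Of 16 macrophage and leukocyte genes, LY86, CD74 and CTSS rose and 0 fell, with a median of 0.33. LY86, a partner of a Toll-like receptor homologue on leukocytes, had 31.3 to 146.4 in the high eyes (median 47.9), against 2.0 to 22 in the low eyes (median 13.9), a difference of 1.42 ± 0.18 (SE, adjusted p = 0.000117). CD74, the invariant chain of class II molecules, rose by 0.82 (adjusted p = 0.0218). T cell markers CD3E and CD4 were below the filter, at 11.1 or less in every high eye and 12.2 or less in every low eye. The part of blood in the other differences was not tested.

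Of 8 genes of the insulin-like growth factor system, IGFBP7, a binding protein of vascular basement membrane, rose. It had 828.1 to 2888 in the high eyes, against 403.3 to 1221 in the low eyes (1.28 ± 0.22, SE, adjusted p = 0.00363), and the list median was 0.07. None of 15 TGF-beta and BMP genes passed (median 0.20). CCN2, connective tissue growth factor, came nearest, with 324.6 to 825.7 in the high eyes and 131.3 to 642.0 in the low eyes (0.75, adjusted p = 0.0761). BMP2 had 89.1 to 443.3 in the high eyes and 40.9 to 353.5 in the low eyes (0.57, adjusted p = 0.508). None of 7 immediate early genes passed (median 0.13).

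Pigment genes gave a mixed result. MLANA, a melanosome protein, was called among 12 melanin and melanocyte genes (median 0.36), with 416.1 in the 3 d goggled eye 3 and 38.7 to 210.7 in the other high eyes, against 22.2 to 94.8 in the low eyes (1.27 ± 0.27, SE, adjusted p = 0.0254). TYR, tyrosinase, did not pass (0.66, adjusted p = 0.0623). Among 14 genes of the pigment epithelium, SERPINF1, the secreted pigment epithelium-derived factor, rose by 0.83 (adjusted p = 0.00207). Of the 14 genes 13 had higher values in the high eyes, against 5702 of 11135 over all genes, and the median was 0.17. TTR, transthyretin, abundant in this epithelium, had 1876 to 4007 in the high eyes, against 903.8 to 4216 in the low eyes (0.49, adjusted p = 0.645).

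None of 10 cartilage genes tested was called, with a median of 0.14. Of the 10, 8 had higher values in the high eyes, against 5702 of 11135 over all genes. COMP had 24.3 to 104.6 in the high eyes and 15 to 47.2 in the low eyes (0.39, adjusted p = 0.594). The defining genes ACAN and MATN1, which encode aggrecan and matrilin 1, were below the filter, at 22.3 or less and 11.6 or less in every high eye, against 19.7 or less and 28.4 or less in every low eye. Nerve sheath and lens genes gave medians of -0.06 (0 of 5 called) and -0.01 (0 of 9 called).

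No list of neural retinal cells had a called gene. Rods and cones had 17 of 18 genes with lower values in the high eyes, against 5433 of 11135 over all genes, with a median of -0.10 and none past the threshold. PRPH2, a protein of photoreceptor discs, had 1359 to 4382 in the high eyes and 1386 to 5509 in the low eyes (-0.35, adjusted p = 0.798), and PDE6B, the rod phosphodiesterase, 258.8 to 481.5 in the high eyes and 228.7 to 611.2 in the low eyes (-0.25, adjusted p = 0.654). Bipolar, amacrine and horizontal, ganglion cell and Müller glia lists had medians of 0.01, 0.02, 0.09 and 0.03. A p that misses the threshold does not show equal levels.

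In the 5 chicks with 1 high and 1 low eye, the eyes could be set against each other as differences of log2(signal + 16). DCN differed by 2.60 to 5.28, by the rule. Of the 145 probe sets called higher, 111 were higher in the high eye of all 5 chicks. Over all 26906 tested probe sets 1205 were higher and 1372 lower in all 5, though these chicks are part of the main comparison and the count adds no separate sample. VWF differed by 1.59 to 3.25 and MMP2 by 0.95 to 3.50. COL3A1 differed by 0.61 in the chick of the 6 h open eye 1 and by 2.62 to 4.74 in the other 4 chicks. The same chick had 2.99 for CDH5, more than the 0.59 and 1.02 of the chicks of the 6 h goggled eye 3 and the 3 d open eye 1.

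The goggle comparison was repeated in the 16 low eyes, 8 goggled and 8 open, to give it without the 7 high eyes and the eye between the limits. Of 26907 probe sets, 3 were called (0.0111%), all lower in goggled eyes, and 1641 had an unadjusted p under 0.05. BMP2, a bone morphogenetic protein that responds to defocus in chick pigment epithelium, had 40.9 to 163.0 in goggled low eyes (median 91.25), against 192.2 to 353.5 in open low eyes (median 288.8). The fitted difference was -1.34 ± 0.20 (SE, adjusted p = 0.0315), and the groups did not overlap. CCN2 had 131.3 to 272.5 in goggled low eyes (median 183.8), against 323.7 to 642.0 in open low eyes (median 437.1), again with no overlap (-1.19 ± 0.16, SE, adjusted p = 0.0232). UTS2B, a urotensin-related peptide gene, had 51.9 to 89.6 in goggled low eyes (median 67.5) and 98.7 to 149.5 in open low eyes (median 118.6), with no overlap (-0.71 ± 0.10, SE, adjusted p = 0.0232). How many of all 26907 probe sets separated goggled from open low eyes was not counted, so the lack of overlap in these 3 genes adds nothing to their calls. VIP, an amacrine cell neuropeptide, had 186.6 to 334.8 in goggled low eyes and 285.1 to 520.8 in open low eyes and did not pass (-0.68, adjusted p = 0.251).

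Over all 24 eyes without a DCN term, 4 probe sets were called, those of BMP2, UTS2B, VIP and LBH, and CCN2 was not (-0.98, adjusted p = 0.200). With log2 DCN as a covariate CCN2 was called (-0.97, adjusted p = 0.00435) among 6. With the DCN group as a covariate over 23 eyes, 2 were called, UTS2B and VIP, and neither CCN2 (-0.93, adjusted p = 0.0978) nor BMP2 (-1.19, adjusted p = 0.0739) passed. In the 3 goggled high eyes CCN2 was 682.3, 484.9 and 324.6, above all 8 goggled low eyes, and the open high eyes had 449.1 to 825.7. How many of all probe sets separated these goggled eyes was not counted, and CCN2 was followed because it was called, so its separation is a description. The difference of the goggle effect between high and low eyes was 0.92 ± 0.33 for CCN2 (SE, unadjusted p = 0.0110 and adjusted p = 0.998, limma), so it did not pass. BMP2 was 401.1, 189.6 and 89.1 in the goggled high eyes, the last of them inside the range of the goggled low eyes. For VIP and UTS2B the goggled high eyes, with 259.1 to 301.6 and 61.0 to 82.7, lay within the range of the goggled low eyes. ALDH1A2 was not called by goggle among the low eyes, with 34.9 to 78.5 in goggled and 32.6 to 78.7 in open low eyes (-0.02, adjusted p = 0.988). This does not show equal levels, and the eyes with 571.3, 405.5 and 246.6 for ALDH1A2 were high eyes outside this comparison. Leaving out each low eye in turn gave 0 to 4 calls: 0 calls remained without 6 h open eye 3, 6 h goggled eyes 1 or 4, 3 d open eyes 3, 4 or 5, or 3 d goggled eyes 2, 5 or 6, with 1429 to 1865 at an unadjusted p under 0.05 by limma.

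**Figure D5:**
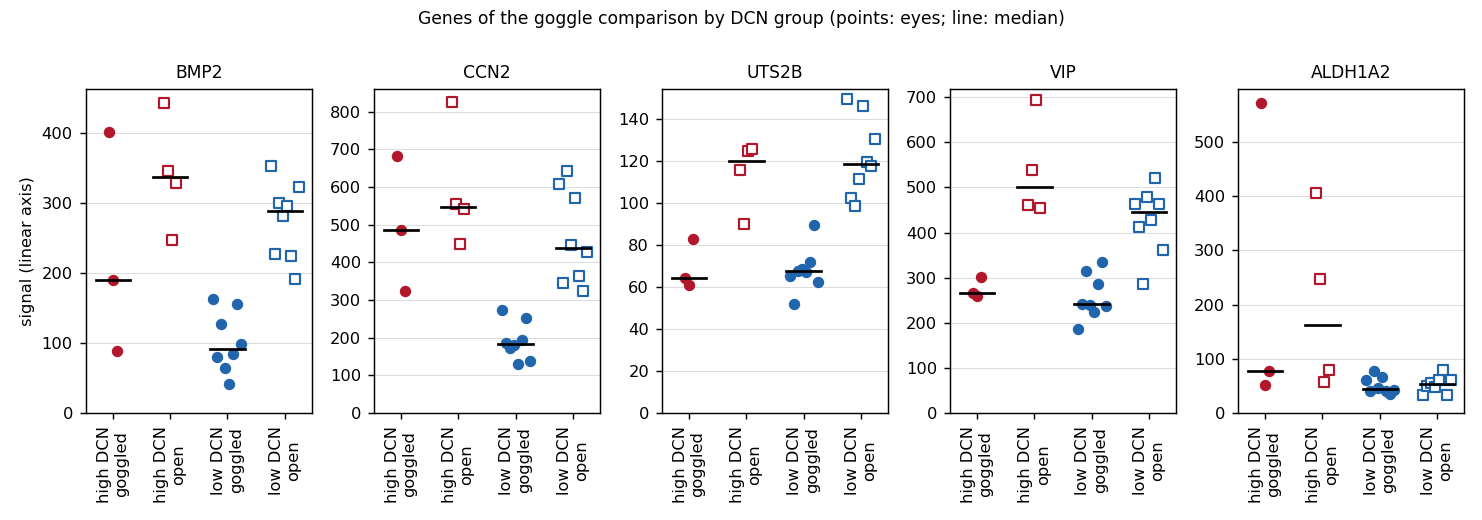
Signal (linear axes from 0) of BMP2, CCN2, UTS2B, VIP and ALDH1A2 in goggled and open eyes of the high DCN (red) and low DCN (blue) groups, with a bar at each median. Among low eyes CCN2 had at most 272.5 in goggled and at least 323.7 in open eyes, and the 3 goggled high eyes had 324.6 to 682.3, given as a description.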

How the data were processed

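The authors deposited 1 linear intensity per probe set and array for 24 eyes. Per the labels' protocols, 3 µg of RNA per eye was labelled and scans were collected with GCOS 1.4. The submitters' processing notes name RMA beside GCOS but give neither a role, so what produced the deposited intensities is not settled. The design text calls the replicates biological.

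Of 38535 probe sets, 96 Affymetrix controls were removed. Log2 was taken of signal + 16. A filter at the 30th percentile of mean signal (14.4) kept 26907. The background came from 57 reporter probe sets (median 3.25). Per the platform annotation, 27168 probe sets had 1 gene, 177 had several and 11094 had no gene. Symbols of 26863 were updated by gene ID from RefSeq (GRCg7b, names only). Linear models were fitted with limma 3.58.1 in R 4.3.3 (19 residual degrees of freedom for high against low eyes) with Benjamini-Hochberg adjustment at 0.05, on all tested probe sets except DCN. Tables and figures were made with Python 3.11.15, scipy 1.17.1 and matplotlib 3.10.9. The fit was tested on simulated data.

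The eyes, markers and gene lists were chosen with earlier results of these data known. A gene was read by its brightest probe set. Named genes were those brighter than the background among the 15 highest and 15 lowest called differences, up to 4 called and 2 other members of each list, the 5 markers, and VIP, UTS2B, BMP2 and ALDH1A2 for the goggle. Further names were chosen after their values were seen.

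Both eyes of each chick were used, per the labels, and eyes sharing a time and a replicate number were treated as its pair. Their deviations from the group means correlated at 0.101 to 0.444 in the 12 pairs. Eyes of different replicate number were not compared in this way, so these values cannot show that equal numbers mark the same chick. The number of arrays limits the precision. Alternatives were the chick as a block, other filters, offsets and scalings, other treatments of the DCN limits, and leaving out eyes.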

Additional observations from a re-analysis of the deposited data

Results flagged for a closer look

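Among the 7 high eyes, HBAD, an alpha globin gene, had a signal of 2845 in the 3 d goggled eye 3, apart from the other high eyes, which had 849.5 to 1398. The same eye had the highest DCN signal, 1471, apart from the other 5 goggled eyes at 3 d. DCN chose the eyes and this was the only high eye of its group, so that flag follows from the rule and is a description. This eye was also the highest for MGP, COL1A1, COL3A1, VWF and HBA1. Over the 31 sets of values examined for an eye far from the others, 2 stood out, and chance alone marks about 1 in 20.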

How the results depend on the processing

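The 146 calls between high and low eyes became 9 with the chick as a fixed replicate block (9 higher, 0 lower), 16 without the 3 eyes highest in DCN (16 higher, 0 lower), 71 at an adjusted p under 0.01 (71 higher, 0 lower) and 224 with the log2 DCN level of all 24 eyes (220 higher, 4 lower). With the chick as a random block 186 were called, 143 of them among the 146. The block took up 1 term per chick, only 5 chicks held both kinds of eye, and the cause of the drop was not tested. The 3 eyes were left out after the data were seen, which also left 4 high eyes. Leaving out each eye in turn gave 72 to 207 calls, 71 to 203 of them higher and 1 to 4 lower. The count of 1 lower probe set became 8 with the random block, 2 at an offset of 1, 6 with quantile normalization, 6 with median centring, 3 with the W-linked signal as a covariate, 3 with the eye between the limits among the low eyes, and 0 with trended robust variances or with that eye among the high eyes. Quantile normalization called 127 and median centring 120, with 121 and 115 among the 146, and the median over all probe sets moved from 0.015 to -0.012 and -0.033. Of 16 named genes none changed direction, 13 lost their call with the fixed block and 11 without the 3 eyes. VWF and MMP2 passed under all 39 settings. Among low eyes, the 3 goggle calls became 6 with log2 DCN as a covariate over 24 eyes (1 higher, 5 lower) and 6 lower with the random block, and over 24 eyes without a DCN term 1 of the calls was higher. Leaving out each low eye gave 0 to 4 calls, all lower. ALDH1A2 was 0.049 with quantile normalization and -0.113 to 0.069 with eyes left out, against -0.02. Counting the eye between the limits as high gave an odds ratio of 1 for goggled against open eyes.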

Other observations

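Of the 96 genes called higher in the high eyes by their brightest probe set, 66 were in none of the lists, and those named next were picked after their values were seen and are given without a test. Several are known as genes that interferons switch on. IFI6 had 55.6 to 167.5 in the high eyes and 11.5 to 48.1 in the low eyes, MX1 27.2 to 54.9 in the high eyes and 2.0 to 25.3 in the low eyes, and PARP14 41.0 to 91.2 in the high eyes and 15.5 to 40.5 in the low eyes. B2M, the light chain of class I histocompatibility molecules, had 396.0 to 1208 in the high eyes and 162.0 to 379.8 in the low eyes. None of these 4 overlapped between the groups, which by the brightest probe set held for 17 of all genes (0.153%). The MX1 median in the low eyes was 10.1, under the filter on mean signal. IFI6 was 52.6, MX1 34.9, PARP14 30.8 and B2M 327.9 in the eye between the limits.

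KLF2, a transcription factor that responds to flow in endothelium, had 49.5 to 88.4 in the 5 eyes highest in DCN, but 2.1 and 10.6 in the 3 d open eye 1 and 6 h goggled eye 3, against 1.5 to 11.6 in the low eyes. FLI1, a transcription factor of blood and endothelium, had 57.4 to 86.9 in those 5 eyes and 26.6 and 35.6 in the other 2, against 7.2 to 35.9 in the low eyes. The efflux transporters ABCB1 and ABCG2, which guard vessel barriers, had 14.2 to 125.1 and 30.4 to 79.6 in the high eyes, against 0.6 to 13.2 and 1.1 to 30.9 in the low eyes. KLF2 and ABCB1 were under the filter on mean signal in every low eye and were tested only through other eyes. CYTL1, a secreted cytokine-like protein, had 324.6, 181.9 and 129.4 in the 3 eyes highest in DCN and 16.9 to 78.5 in the other high eyes, against 4.1 to 30 in the low eyes.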
